A study of Mus musculus with 4 samples.

Results

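The MAP kinase phosphatases described here are 10 genes of the dual-specificity phosphatase family, *Dusp1*, *Dusp2*, *Dusp4*, *Dusp5*, *Dusp6*, *Dusp7*, *Dusp8*, *Dusp10*, *Dusp14* and *Dusp16*. They were found by gene name, and all 10 were present among the 55356 genes of an RNA sequencing table from immortalized mouse macrophages. The macrophages came from bone marrow of *MK2*-KO mice. They were transduced with a retroviral vector that carries either *GFP* alone (i*MK2*-KO +*GFP*, below +*GFP* cells) or *MK2* together with *GFP* (i*MK2*-KO +*MK2*, below +*MK2* cells) and were sorted for *GFP*. Each line was left untreated (UT) or received recombinant murine IL-1α at 5 ng/mL for 1 h, which gives 4 conditions with 1 library each. The question put to the *Dusp* genes was how their basal level and their IL-1α response compare between cells without and with MK2, the kinase that p38 activates.

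Several features limit these cells as a model. In both lines the endogenous *MK2* gene is knocked out, and the labels call the +*MK2* libraries wild type although MK2 comes from the vector. Each line is 1 transduced and sorted culture, so the presence of MK2 and the history of the culture cannot be told apart. With 1 library per condition there is no replicate error and no test between conditions. The values are normalized counts, that is read counts divided by a size factor for each library and rounded. A difference is given as a log2 ratio between a pair of libraries, with 1 added to each value as pseudocount, and the range in parentheses behind it is a 95% interval, taken from the exact Clopper-Pearson limits of one library's share of the summed pair, that covers counting error only. For the difference between the responses of both lines, the interval combines the counting variances of the 4 values. A ratio is called beyond counting error where this interval excludes 0, and past 2-fold where the ratio reaches 2-fold. Shares of all genes are taken over the 12483 genes with a mean of at least 10 over the 4 libraries, called tested here.

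MAP kinases are switched on when a MAP kinase kinase phosphorylates a threonine and a tyrosine in their activation loop, and MAP kinase phosphatases remove both phosphates. *Dusp1*, *Dusp2*, *Dusp4* and *Dusp5* encode nuclear enzymes, and transcription of these genes is typically induced within minutes to hours of a stimulus. *Dusp6* and *Dusp7* encode cytoplasmic enzymes selective for ERK, and *Dusp6* is a widely used readout of ERK activity. *Dusp8*, *Dusp10* and *Dusp16* encode enzymes that prefer the stress kinases JNK and p38. *Dusp14* encodes a small phosphatase without the amino-terminal MAP kinase binding domain of the others. In macrophages, *Dusp1* is known as a brake on p38 and on the production of inflammatory cytokines.

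RefSeq promoters on GRCm38.p6 were found for 9 of the 10 genes, and no entry was used for *Dusp4*. The 250 bases before the annotated start are printed for the members whose window held a searched motif. *Dusp6* is added as a member that differed strongly between the lines and whose window held none. Sequences run 5′ to 3′ on the strand of the gene, and capitals mark the motif matches.
*Dusp1*, chr17:26508473-26508722, minus strand: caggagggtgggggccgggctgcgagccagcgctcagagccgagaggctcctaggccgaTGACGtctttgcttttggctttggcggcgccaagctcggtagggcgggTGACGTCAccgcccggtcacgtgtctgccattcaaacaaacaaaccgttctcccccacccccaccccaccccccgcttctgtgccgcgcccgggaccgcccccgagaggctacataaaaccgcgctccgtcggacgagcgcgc
*Dusp8*, chr7:142095285-142095534, minus strand: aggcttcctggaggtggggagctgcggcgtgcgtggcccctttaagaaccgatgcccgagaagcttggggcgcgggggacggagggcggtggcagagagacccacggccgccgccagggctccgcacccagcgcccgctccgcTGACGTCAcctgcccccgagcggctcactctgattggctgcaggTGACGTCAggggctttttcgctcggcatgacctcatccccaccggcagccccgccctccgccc
*Dusp5*, chr19:53528895-53529144, plus strand: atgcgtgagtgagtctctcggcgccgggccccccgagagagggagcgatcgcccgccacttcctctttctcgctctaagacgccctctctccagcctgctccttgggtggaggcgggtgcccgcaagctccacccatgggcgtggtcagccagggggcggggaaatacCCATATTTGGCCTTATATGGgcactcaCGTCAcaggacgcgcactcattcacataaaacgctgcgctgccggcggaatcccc
*Dusp16*, chr6:134792629-134792878, minus strand: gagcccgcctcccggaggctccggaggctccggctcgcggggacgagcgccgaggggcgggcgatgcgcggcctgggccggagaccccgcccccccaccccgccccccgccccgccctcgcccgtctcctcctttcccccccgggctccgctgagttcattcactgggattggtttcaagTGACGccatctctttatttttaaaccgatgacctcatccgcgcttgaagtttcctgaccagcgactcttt
*Dusp6*, chr10:99262981-99263230, plus strand: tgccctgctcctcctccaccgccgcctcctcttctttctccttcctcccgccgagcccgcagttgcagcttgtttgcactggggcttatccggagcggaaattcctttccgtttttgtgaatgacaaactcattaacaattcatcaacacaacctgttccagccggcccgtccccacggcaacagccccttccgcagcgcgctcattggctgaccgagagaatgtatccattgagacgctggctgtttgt

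The motifs were searched on both strands. They were the cAMP response element TGACGTCA, its shorter core TGACG, the AP-1 site TGANTCA, the CArG box bound by serum response factor, and the κB consensus. The core is contained in the full element, so each full element also counts as a core match. In *Dusp1*, 1 cAMP response element lay 143 to 136 bases before the start, and a separate core lay 191 to 187 bases before it. In *Dusp8*, 2 cAMP response elements lay 107 to 100 and 63 to 56 bases before the start. Adjacent CArG boxes in *Dusp5* lay 82 to 73 and 72 to 63 bases before the start, followed by a core at 55 to 51. *Dusp16* had a core 70 to 66 bases before the start. The windows of *Dusp2*, *Dusp6*, *Dusp7*, *Dusp10* and *Dusp14* held no match, and no member's window held an AP-1 site or a κB consensus. Among 32851 promoter windows of the same length, 1.55% held the full cAMP response element, 17.8% the core, 6.75% the AP-1 site, 3.90% the κB consensus and 1.47% the CArG box. The 9 windows had a GC content of 56.4 to 77.2%, against a median of 52.4% over all windows. These matches describe the letters of the window only.

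The libraries had similar totals of 24891906 to 25733071 normalized counts, with 17840 to 18152 genes above 0. *Mapkapk2*, the gene of MK2, was at 561 and 1585 in UT and treated +*GFP* cells and at 38357 and 38141 in +*MK2* cells, as the labels of the lines give it. Where in the knocked-out gene the remaining reads lie was not examined. The gene of the closely related kinase MK3, *Mapkapk3*, was present in all 4 libraries, between 1350 and 2332. All 8 macrophage markers examined reached this mean, with sums of 116207 to 130953. Of these *Cd14*, the lipopolysaccharide co-receptor gene, passed 2-fold, at 3652 and 8072 normalized counts in UT and treated +*GFP* cells and at 1962 and 2250 in +*MK2* cells. Beyond counting error, 3 of the 8 markers were higher and 4 lower without MK2 when untreated, against 30.8% and 26.9% of all genes. After IL-1α these were 4 and 4, against 33.7% and 26.3%. The lower ones included *Adgre1*, at 3978 and 4140 without MK2 and at 6832 and 6330 with MK2. *Fcgr1* was also lower, at 1226 and 1194 against 2108 and 2216. The higher ones included, besides *Cd14*, *Csf1r* at 23227 and 27561 without MK2 and at 20290 and 21305 with MK2. *Spi1* was also higher, at 4782 and 5524 against 4551 and 4663. Of 15 markers of other cells, only *Zbtb46*, a dendritic cell marker, had a mean of at least 10. *Zbtb46* was at 23 and 18 in +*GFP* cells and at 104 and 115 in +*MK2* cells, and the sum over all 15 markers was 28 and 23 against 113 and 123. This moved with the line, as did several phosphatases below, and its part in those results was not tested. Fewer cells of a type and less RNA per cell cannot be told apart in these bulk samples.

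*Dusp4* was the most abundant of the 10 members in every library. Its level per kilobase of the spliced transcript was 702 and 1374 normalized counts in UT and treated +*GFP* cells, and 917 and 979 in +*MK2* cells. *Dusp4* supplied 42.4 to 53.3% of the summed normalized counts of all 10 genes. *Dusp7* was second per kilobase in 3 libraries with 383, 581 and 573 normalized counts, in UT +*GFP* and in UT and treated +*MK2* cells. In treated +*GFP* cells *Dusp2* stood second at 442 per kilobase, and *Dusp7* at 270 was followed by *Dusp16* at 247, whose counting intervals overlapped. *Dusp6* ranked 3rd per kilobase in both +*MK2* libraries, at 211 and 204, and 6th and 8th in the +*GFP* libraries, at 30.0 and 19.7. *Dusp10* had the lowest value in every library, but its counting interval overlapped that of *Dusp8* in all except the treated +*GFP* library.

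**Figure D1:**
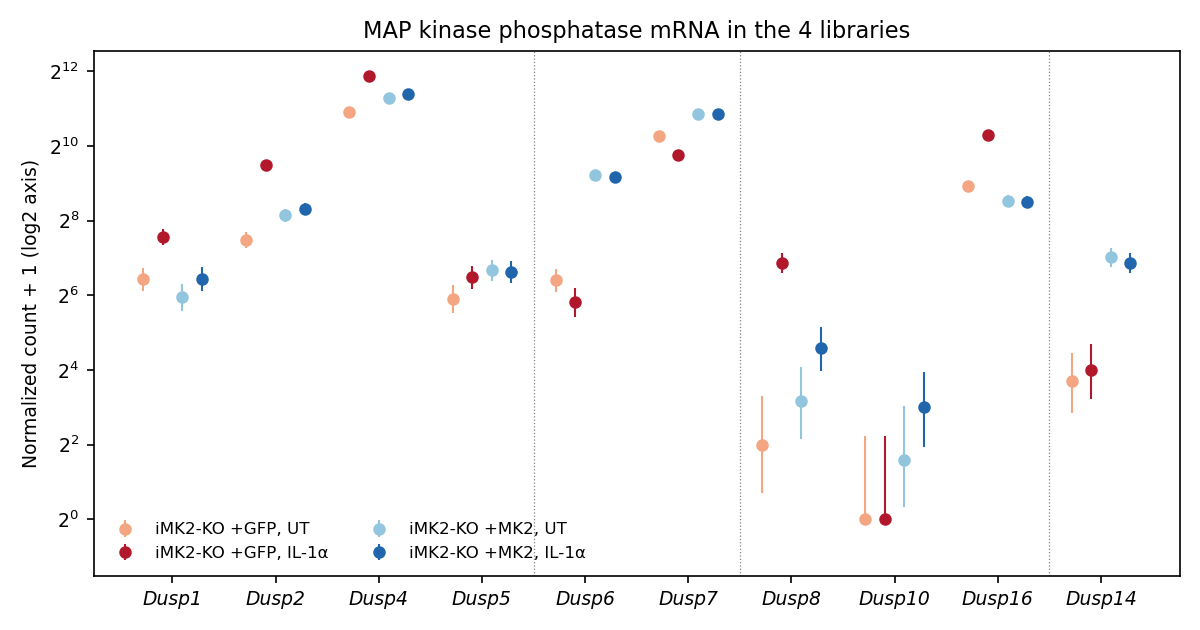
Normalized count plus 1 (vertical log2 axis) of the 10 phosphatase genes in the 4 libraries, with exact Poisson 95% intervals as bars, which cover counting error only. Dotted lines separate the nuclear inducible, the cytoplasmic ERK-selective, the JNK- and p38-preferring and the small phosphatases. Treated +*GFP* cells are highest for *Dusp1*, *Dusp2*, *Dusp4*, *Dusp8* and *Dusp16*, and *Dusp6*, *Dusp7* and *Dusp14* are higher in both +*MK2* libraries.

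Among the nuclear inducible phosphatases, *Dusp1* and *Dusp2* were more than 2-fold higher after IL-1α in +*GFP* cells, *Dusp4* was just short of 2-fold, and *Dusp5* differed less. The summed normalized counts of these 4 genes were 2245 in UT and 4756 in treated +*GFP* cells, and 2957 and 3186 in +*MK2* cells. The log2 ratio of the sums was 1.08 (1.01 to 1.16) in the former and 0.11 (0.035 to 0.18) in the latter line. *Dusp4* made up 79.1 to 85.7% of these sums, so they mostly carry its values.

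*Dusp2* encodes a nuclear phosphatase that is abundant in immune cells. The table places it at chr2:127178079-127180296, in a build that is uncertain and differs from that of the promoters above, as do the positions that follow. Its normalized counts were 177 in UT and 715 in treated +*GFP* cells, and 282 and 319 in +*MK2* cells. The treated +*GFP* library was far above the other 3, and the UT library of the same line was the lowest. The log2 ratio of IL-1α to UT was 2.01 (1.77 to 2.26) without MK2, which only 83 of the 12483 genes tested exceeded, and 0.18 (-0.058 to 0.41) with MK2. The difference between the responses was 1.83 (1.5 to 2.16). The lines stood in opposite order before and after treatment: *Dusp2* was lower in +*GFP* than in +*MK2* cells when untreated, with a log2 ratio of -0.67 (-0.95 to -0.40), and higher after IL-1α, with 1.16 (0.97 to 1.36).

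*Dusp4*, whose product acts on nuclear ERK and JNK, followed the same order of libraries with smaller ratios. It lies at chr8:35274451-35287048 in the table. Its normalized counts were 1924 and 3764 in UT and treated +*GFP* cells, and 2513 and 2683 in +*MK2* cells. All neighbours in this order differed beyond counting error. IL-1α against UT gave a log2 ratio of 0.97 (0.89 to 1.05) in +*GFP* cells, a 1.96-fold higher level, and 0.094 (0.015 to 0.17) in +*MK2* cells. The latter interval included 0 with 0.7 reads for each normalized count. The responses differed by 0.87 (0.76 to 0.98). Between the lines, the log2 ratio of +*GFP* to +*MK2* cells was -0.39 (-0.47 to -0.30) when untreated and 0.49 (0.42 to 0.56) after IL-1α.

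*Dusp1* encodes the phosphatase that limits p38 and JNK after inflammatory stimuli. It was at 85 and 188 normalized counts in UT and treated +*GFP* cells, and at 61 and 86 in +*MK2* cells. The treated +*GFP* library was above the other 3, which did not differ from their neighbours in order beyond counting error. *Dusp1* had a log2 ratio of IL-1α to UT of 1.14 (0.77 to 1.53) without MK2 and of 0.49 (0.0054 to 0.99) with MK2, and the responses differed by 0.65 (0.049 to 1.25). The interval with MK2 included 0 with equal totals, from -0.0061 to 0.98, and with 0.7 reads for each normalized count the interval with MK2 and that of the difference both did. Untreated, +*GFP* cells were above +*MK2* cells by 0.47 (-0.013 to 0.98), and after IL-1α by 1.12 (0.75 to 1.51). The table gives *Dusp1* the region chr17:26724564-26781102, which overlaps the abundant gene *Ergic1* (4120 to 4662 normalized counts), and how reads in the overlap were assigned is not given in the sources used here. *Dusp1* values are uncertain to that extent.

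*Dusp5* encodes a nuclear phosphatase selective for ERK and lies at chr19:53517540-53530862 in the table. Its normalized counts were 59 and 89 in UT and treated +*GFP* cells, and 101 and 98 in +*MK2* cells. The UT +*GFP* library was the lowest, and the other 3 could not be told apart in order. Between the lines, *Dusp5* was at -0.77 (-1.26 to -0.30) when untreated and at -0.14 (-0.57 to 0.29) after IL-1α. The log2 ratio of IL-1α to UT was 0.58 (0.10 to 1.09) without MK2 and -0.043 (-0.46 to 0.37) with MK2, and the difference of 0.63 (0.0086 to 1.25) only just excluded 0 and included it under each other scaling and with 0.7 reads for each normalized count.

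The cytoplasmic ERK phosphatases differed from the nuclear ones in the direction of their IL-1α response without MK2, where both were lower after IL-1α. In untreated cells both were lower without MK2, as were *Dusp2*, *Dusp4* and *Dusp5*. *Dusp6* lies at chr10:99099093-99103351 in the table and was at 84 and 55 normalized counts in UT and treated +*GFP* cells, against 591 and 571 in +*MK2* cells. The libraries of the lines were widely separated. Between the lines, the log2 ratio was -2.80 (-3.16 to -2.48) when untreated, a 6.96-fold lower level without MK2, and -3.35 (-3.80 to -2.98) after IL-1α, 10.2-fold lower. Of the 12483 genes tested, 184 had a lower ratio between the untreated lines. *Dusp6* was lower after IL-1α in +*GFP* cells, with a log2 ratio of -0.60 (-1.13 to -0.10), whereas +*MK2* cells showed -0.050 (-0.22 to 0.12). The responses differed by -0.55 (-1.07 to -0.037), an interval that included 0 with 0.7 reads for each normalized count.

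*Dusp7*, the paralogue of *Dusp6*, lies at chr9:106245831-106252923 in the table. Its normalized counts were 1230 and 866 in UT and treated +*GFP* cells, and 1867 and 1840 in +*MK2* cells. Both +*GFP* libraries lay below both +*MK2* libraries, and the latter did not differ beyond counting error. *Dusp7* had a log2 ratio of IL-1α to UT of -0.51 (-0.63 to -0.38) without MK2 and -0.021 (-0.11 to 0.073) with MK2, a difference of -0.48 (-0.64 to -0.33). Between the lines, *Dusp7* was at -0.60 (-0.71 to -0.50) when untreated and at -1.09 (-1.21 to -0.97) after IL-1α, which is 2.12-fold lower without MK2. The summed counts of both ERK phosphatases were 1314 and 921 without MK2 and 2458 and 2411 with MK2.

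Among the phosphatases that prefer JNK and p38, *Dusp8* and *Dusp16* were more than 2-fold higher after IL-1α in +*GFP* cells. *Dusp16*, at chr6:134692431-134769588 in the table, was at 490 and 1261 normalized counts in UT and treated +*GFP* cells, and at 370 and 362 in +*MK2* cells. The treated +*GFP* library stood alone at the top, and both +*MK2* libraries were level within counting error. Set against UT, the log2 ratio after IL-1α was 1.36 (1.21 to 1.52) without MK2 and -0.031 (-0.24 to 0.18) with MK2, and the responses differed by 1.39 (1.14 to 1.65). *Dusp16* was also higher without MK2 in untreated cells, by 0.40 (0.21 to 0.60), and by 1.80 (1.63 to 1.97) after IL-1α.

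*Dusp8*, at chr7:141633227-141649580 in the table, was nearly silent in untreated cells of both lines. It was at 3 and 115 normalized counts in UT and treated +*GFP* cells, and at 8 and 23 in +*MK2* cells. Both treated libraries were above both untreated ones. The log2 ratio of IL-1α to UT was 4.86 (3.68 to 7.56) without MK2, and 11 of the 12483 genes tested had a higher one. With MK2 it was 1.42 (0.31 to 2.89), or -0.013 to 3.06 with 0.7 reads for each normalized count, and the responses differed by 3.44 (1.54 to 5.35). The untreated lines did not differ beyond counting error, with -1.17 (-3.96 to 0.64), and after IL-1α *Dusp8* was higher without MK2 by 2.27 (1.67 to 3.04). The width of these intervals reflects the few counts in untreated cells. Most of the *Dusp8* counts came from the treated +*GFP* library, which also carries most of its mean in the filter.

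*Dusp10*, at chr1:183745499-183807833 in the table, was at 0 in both +*GFP* libraries, and at 2 and 7 normalized counts in UT and treated +*MK2* cells. A value of 0 allows up to 3 counts per library. With the zero set to this floor and the 7 taken as counted, *Dusp10* was 2.33-fold lower in treated +*GFP* than in treated +*MK2* cells. With the counting error of both values the upper end of that log2 ratio was -0.53, which is less than 2-fold, and no other ratio is given. No response to IL-1α was detectable at this depth in +*GFP* cells.

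*Dusp14*, at chr11:83938867-83960087 in the table, differed between the lines and did not differ with IL-1α beyond counting error. Its normalized counts were 12 and 15 in UT and treated +*GFP* cells, and 129 and 115 in +*MK2* cells. The lines did not overlap. Most of the *Dusp14* counts came from the +*MK2* libraries, which also carry most of its mean in the filter. Its low ratio between the lines was partly set by that filter. The log2 ratio between the lines was -3.32 (-4.42 to -2.57) when untreated, which 152 of the 12483 genes tested were below, and -2.86 (-3.82 to -2.16) after IL-1α. The IL-1α response was 0.30 (-0.87 to 1.55) without MK2 and -0.16 (-0.54 to 0.21) with MK2, and the interval without MK2 reaches past 2-fold.

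Over the family, more members were 2-fold higher after IL-1α in +*GFP* than in +*MK2* cells. Counts were made over the 9 members with a mean of at least 10, *Dusp10* being left out. Of these, 4 were at least 2-fold higher after IL-1α without MK2 (*Dusp1*, *Dusp2*, *Dusp8* and *Dusp16*), against 2.24% of all genes tested, and 0 were at least 2-fold lower, against 1.58%. *Dusp8* reached the mean of 10 only through the treated +*GFP* library, so its calls with that library were partly set by the filter. With a mean of at least 50, which removes *Dusp8*, 3 members were at least 2-fold higher after IL-1α without MK2. In +*MK2* cells 1 member, *Dusp8*, was at least 2-fold higher, against 0.889% of all genes, and 0 were lower, against 1.03%. Beyond counting error, 6 members were higher and 2 lower in +*GFP* cells, against 20.0% and 12.3% of all genes. In +*MK2* cells these were 3 and 0, against 11.4% and 8.23%, and 0 of the 3 were left with 0.7 reads for each normalized count. The median log2 ratio of the 9 members was 0.97 without MK2 and -0.021 with MK2, while that of all genes tested was 0.015 and 0.0083.

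**Figure D2:**
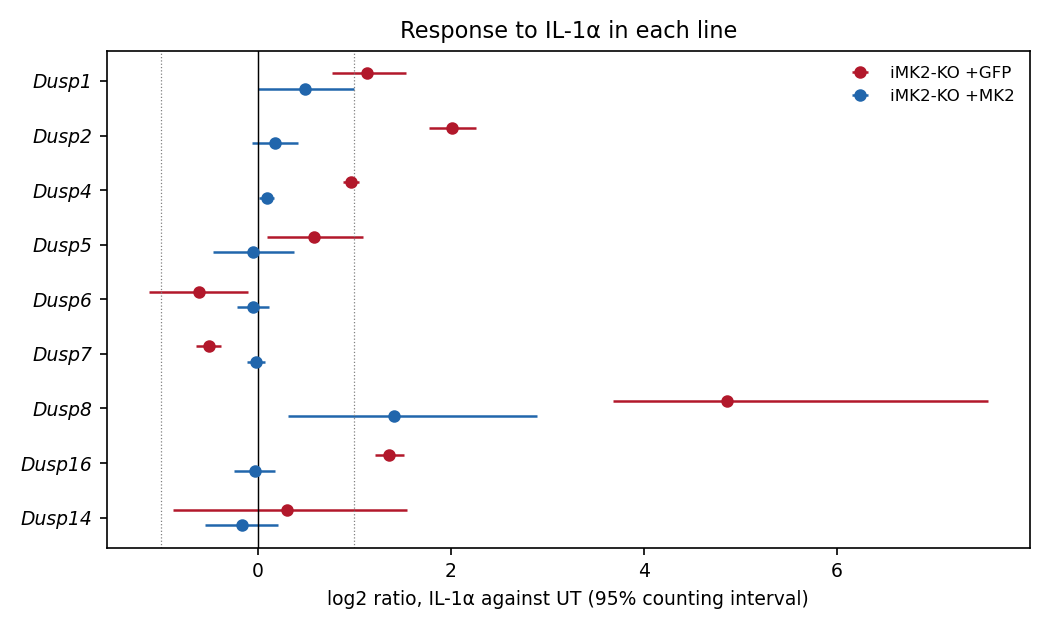
Log2 ratio of IL-1α-treated to UT cells (horizontal axis) for the 9 phosphatase genes with a mean of at least 10, in +*GFP* (red) and +*MK2* cells (blue). Bars are 95% counting intervals, and dotted lines mark 2-fold. *Dusp8* at 4.86 and *Dusp2* at 2.01 lie farthest to the right without MK2, and with MK2 most members lie near 0.

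The difference between the responses of both lines was at least 2-fold towards +*GFP* cells for 3 members (*Dusp2*, *Dusp8* and *Dusp16*), against 3.12% of all genes, and towards +*MK2* cells for 0, against 2.50%. With a mean of at least 50, which removes *Dusp8*, it was at least 2-fold towards +*GFP* cells for 2. Beyond counting error it was above 0 for 6 members and below 0 for 2, *Dusp6* and *Dusp7*, against 15.8% and 11.1%. Under each other scaling *Dusp5* lost this call, which left 5 above 0, and with 0.7 reads for each normalized count 4 were above and 1 below 0, *Dusp1*, *Dusp5* and *Dusp6* having lost it. The summed normalized counts of all 10 genes were 4064 and 7068 without MK2 and 5924 and 6104 with MK2, a log2 ratio of 0.80 (0.74 to 0.85) and of 0.043 (-0.0086 to 0.095). The sum was thus lower without MK2 in untreated cells and higher after IL-1α, and it rests on *Dusp4* for a large share.

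**Figure D3:**
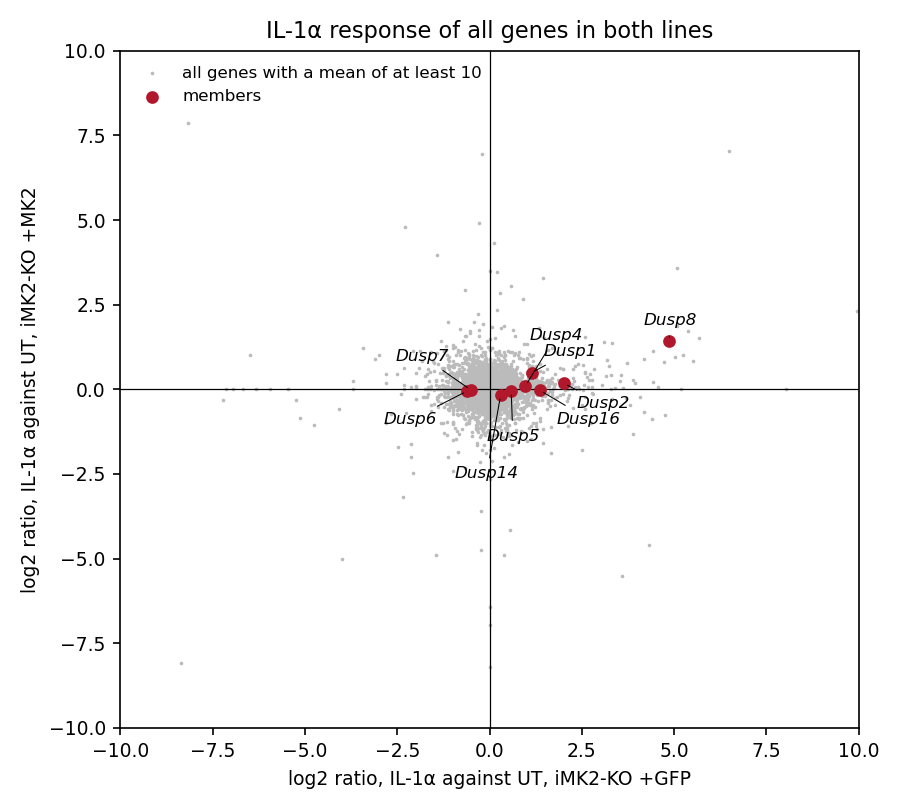
Log2 ratio of IL-1α-treated to UT cells in +*GFP* (horizontal axis) and in +*MK2* cells (vertical axis), with 1 grey point for each of the 12483 genes whose mean reached 10 and the 9 phosphatase genes in red. *Dusp2* and *Dusp16* lie far to the right near the horizontal zero line, and *Dusp8* lies to the right and above it.

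The direct comparison of the lines asks which phosphatases differed with MK2 in each state. Untreated, 3 of the 9 members were at least 2-fold lower without MK2 (*Dusp6*, *Dusp8* and *Dusp14*), against 5.23% of all genes, and 0 were at least 2-fold higher, against 3.50%. *Dusp8* is the member of these whose interval included 0, and without it, as with a pseudocount of 5 or a mean of at least 50, the count was 2. The +*MK2* libraries carry most of the mean of *Dusp14* in the filter. Its calls as lower, here and after IL-1α, were therefore partly set by the filter. Beyond counting error, 6 were lower and 1, *Dusp16*, was higher, against 26.9% and 30.8%. After IL-1α, 4 were at least 2-fold higher without MK2 (*Dusp1*, *Dusp2*, *Dusp8* and *Dusp16*), against 4.15%, and 3 were lower (*Dusp6*, *Dusp7* and *Dusp14*), against 5.56%. *Dusp8* passed the filter only through the treated +*GFP* library, and with a mean of at least 50 the number higher was 3. Beyond counting error these were 5 and 3, against 33.7% and 26.3%. The median log2 ratio of the members was -0.67 untreated and 0.49 after IL-1α, the latter being 0.18 without a filter and with a mean of at least 50, and that of all genes 0.021 and 0.031. The comparisons within and between the lines share libraries, so their values are not independent of each other.

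**Figure D4:**
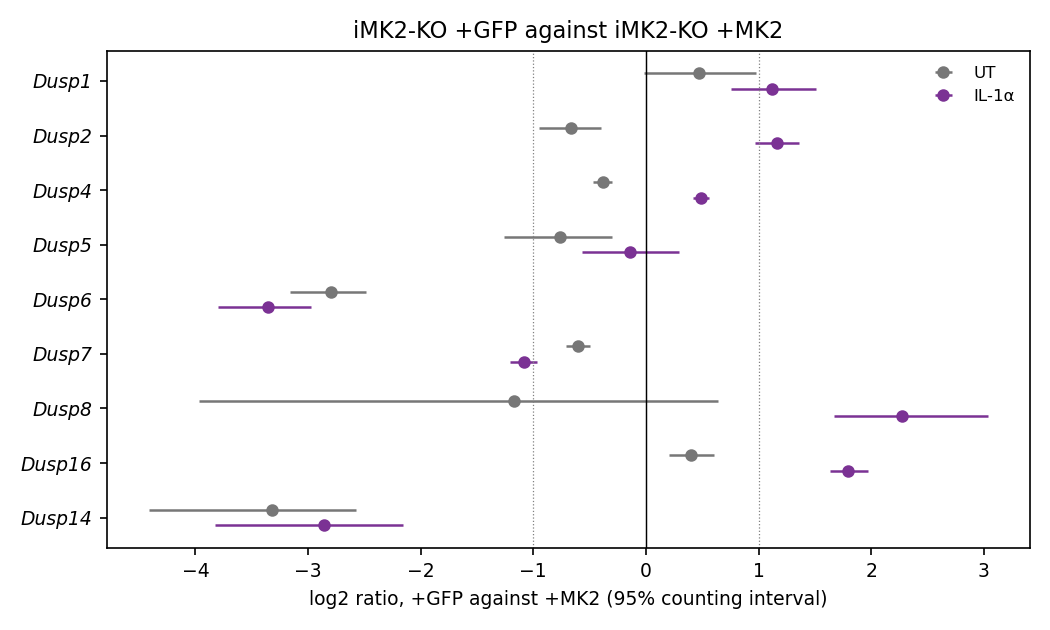
Log2 ratio of +*GFP* to +*MK2* cells (horizontal axis) for the 9 phosphatase genes with a mean of at least 10, untreated (grey) and after IL-1α (purple), with 95% counting intervals as bars and dotted lines at 2-fold. *Dusp2*, *Dusp4* and *Dusp8* lie on opposite sides of 0 in the 2 states, and *Dusp6*, *Dusp7* and *Dusp14* lie to the left of 0 in both.

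The kinases that these phosphatases act on, or that lie above them, mostly did not reach 2-fold. The same holds for most genes, since each direction of a comparison held 0.889 to 5.56% of all genes tested past 2-fold. In lists this short, counts of 0 or 1 lie near that share and are no result about these kinases. Of 7 tested genes of 10 MAP kinases, 0 passed 2-fold in either response. *Mapk11*, which encodes p38β, was at 5 and 3 normalized counts without MK2 and at 172 and 166 with MK2, a log2 ratio of -4.85 untreated and of -5.38 (-8.08 to -4.22) after IL-1α, the latter resting on 3 counts. It reached the mean of 10 only through the +*MK2* libraries, so that its direction was set by the filter. All 7 MAP kinase kinases were tested, and 0 passed 2-fold in any of the 4 comparisons. Of 11 MAP3 kinases, *Map3k8*, the kinase upstream of ERK in inflammatory signaling, was the single gene past 2-fold. It was at 150 and 487 normalized counts without MK2 and at 85 and 201 with MK2, with a log2 ratio of IL-1α to UT of 1.69 (1.43 to 1.97) and 1.23 (0.87 to 1.62). It was higher without MK2 after IL-1α by 1.27 (1.04 to 1.52). Among 10 kinases activated by MAP kinases, *Mapkapk2*, the deleted gene, was the single one past 2-fold.

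Few other phosphatases passed 2-fold, as did few of all genes tested, at 0.889 to 5.56% for each direction of a comparison. Of 6 tested genes of 8 other phosphatases that act on MAP kinases, 0 passed 2-fold in any of the 4 comparisons. Of 13 other dual-specificity phosphatases, 9 were tested, and 0 passed 2-fold in either response. In both comparisons of the lines 2 were lower without MK2, against 5.23% of all genes untreated and 5.56% after IL-1α. One of them, *Dusp9*, reached the mean of 10 only through the +*MK2* libraries, so that its direction was set by the filter. *Dusp23* was at 54 and 45 normalized counts without MK2 and at 121 and 136 with MK2, a log2 ratio of -1.15 untreated and -1.57 (-2.12 to -1.10) after IL-1α. *Dusp9*, named after its values were seen, encodes a further cytoplasmic phosphatase selective for ERK. It was at 0 in both libraries without MK2 and at 20 in both with MK2. With 0 set to the floor of 3 counts per library and the 20 taken as counted, it was 6.67-fold lower. With the counting error of both values the upper end of the log2 ratio was -2.30.

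Genes downstream of ERK were examined because *Dusp6* is often read as an ERK target. *Spry2*, a feedback inhibitor of ERK signaling, was at 39 and 36 normalized counts without MK2 and at 152 and 172 with MK2, a log2 ratio of -1.94 (-2.51 to -1.45) untreated and -2.23 (-2.82 to -1.73) after IL-1α. It was the single gene of 5 tested of 7 feedback inhibitors to pass 2-fold. Of all genes, 5.23% were at least 2-fold lower without MK2 when untreated and 5.56% after IL-1α. Of 9 ERK output genes, 3 were at least 2-fold lower without MK2 when untreated, against 5.23% of all genes. After IL-1α 4 were lower and 2 higher, against 5.56% and 4.15%. *Etv4*, named after its values were seen, was among the lower genes in both states. It was at 14 and 12 normalized counts without MK2 and at 32 and 40 with MK2. The +*MK2* libraries carry most of its mean, so its calls as lower were partly set by the filter. *Fosl1*, an AP-1 subunit gene, was at 38 and 48 without MK2 and at 290 and 292 with MK2, a log2 ratio of -2.90 (-3.46 to -2.44) and -2.58 (-3.08 to -2.13). *Etv5*, a transcription factor gene of the ETS family, was at 440 and 398 without MK2 and at 1458 and 1379 with MK2. *Ier3*, an early response gene, was instead higher after IL-1α, at 722 and 4327 without MK2 and at 773 and 1095 with MK2. Its log2 ratio of IL-1α to UT was 2.58 (2.47 to 2.70) and 0.50, so the list did not move in one direction.

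Genes whose pattern over the 4 libraries was most like that of a member were named by the Euclidean distance between log2 profiles, each centred on its mean, out of 10577 candidates whose mean reached 50. This is a description over 4 points. *Dusp2* lay closest to *Csf1* at a distance of 0.20, with *Ikbke* and *Ccl3* next at 0.20 and 0.22. *Csf1* was at 1153 and 4332 normalized counts in UT and treated +*GFP* cells and at 1526 and 1823 in +*MK2* cells. *Dusp1* lay closest to *Zfp263* at 0.15, followed by *Ccng2* and the NF-κB subunit gene *Rel* at 0.21 and 0.22. For *Dusp16* these were *Cdc42ep4* at 0.039, *Filip1l* at 0.098 and *Pnrc1* at 0.14. *Dusp6* was closest to *Zfp467*, *Slc26a11* and *Eda2r* at 0.16, 0.18 and 0.21, and *Dusp7* to *Pex26*, *Nr1d1* and *Fam78a* at 0.062, 0.087 and 0.089. *Dusp14* lay near *Pax3*, *Arhgef12* and *Mt2* at 0.19, 0.19 and 0.29.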

How the data were processed

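The authors deposited 1 table with 1 score for each gene and library, which the heatmap legend calls DESeq2 normalized counts and which holds whole numbers only. Its columns are named like salmon output, and the submitters' processing notes name DESeq2 and GRCm38 without versions. Of 52080 genes matched to GENCODE vM21 (GRCm38), 1494 had the same position, so the build of the table's positions is uncertain and they are printed as deposited. The labels give poly(A) selection, whereas the methods describe ribosomal RNA depletion. No count model was applied to the normalized values. Log2 ratios, intervals and counts were computed with Python 3.11.15, numpy 2.4.6, pandas 2.3.3 and scipy 1.17.1, over the 12483 genes whose mean reached 10. They were tried on simulated Poisson counts, the error that the intervals assume, so variation between cultures was not covered. Intervals take each normalized count as 1 read. Levels per kilobase use GENCODE vM21 principal transcripts. All members were named. Of each of 10 gene lists, members past 2-fold with a mean of at least 50 were named, at most 3 by the size of the ratio, plus the 3 genes closest in pattern to members whose mean reached 50 and whose log2 range reached 1. The members and lists were chosen with earlier results of these data known. Alternatives were other scalings, pseudocounts, filters, folds and reads per value.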

Additional observations from a re-analysis of the deposited data

Results flagged for a closer look

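For 6 phosphatase genes the log2 ratios had opposite signs in a pair of comparisons. With 1 library per condition these differences were not tested. The rule takes the sign only, and the share of all genes that meets it was not computed. The count of 6 is therefore not read as a result about the members. *Dusp2* was lower without MK2 in untreated cells (log2 ratio -0.67) and higher after IL-1α (1.16), a difference of 1.83, and both counting intervals exclude 0. The same held for *Dusp4*, with -0.39 and 0.49 and a difference of 0.87. *Dusp8* stood at -1.17 and 2.27, a difference of 3.44, and only the interval after IL-1α excludes 0. The IL-1α response of *Dusp16* was 1.36 without MK2 and -0.031 with MK2, a difference of 1.39, and that of *Dusp5* was 0.58 and -0.043, a difference of 0.63. In both genes only the interval without MK2 excludes 0. *Dusp14* responded with 0.30 and -0.16, a difference of 0.46, and neither interval excludes 0.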

How the results depend on the processing

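No member's log2 ratio changed sign under other scalings (trimmed mean of M values, equal totals, equal *Gapdh*) or pseudocounts (0.5 and 5), and 151 of 165 recomputed counts and medians stayed within the limits set for them. With equal *Gapdh* the median of the members between the IL-1α-treated lines was 0.39, instead of 0.49, as was the value of *Dusp4*. With a 1.5-fold limit, 1 member was lower after IL-1α without MK2 (0 at 2-fold), 6 were lower without MK2 when untreated (3 at 2-fold), and the difference of responses was higher for 6 (3 at 2-fold). Shares of all genes at 1.5-fold were not computed, so these counts have no background to be set against. Without a filter, which adds *Dusp10*, and with a mean of at least 50, which removes *Dusp8*, the median response without MK2 was 0.78 and the median between the treated lines 0.18. Without a filter 2 members were higher after IL-1α with MK2, and the difference of responses was at least 2-fold lower for 1. With a mean of at least 50, 0 were higher with MK2. With 0.7 reads for each normalized count, 0 members were higher beyond counting error after IL-1α with MK2 (3 at 1 read), and the difference of responses was above 0 for 4 and below 0 for 1 (6 and 2 at 1 read). Under each other scaling the difference was above 0 for 5, without *Dusp5*, and with equal totals 2 members were higher after IL-1α with MK2, without *Dusp1*. With a pseudocount of 5 or a mean of at least 50, 2 members were at least 2-fold lower without MK2 when untreated, without *Dusp8*. With 1.3 reads, 2 members were higher without MK2 when untreated (1 at 1 read). Apart from these changes in the genes counted and the reads assumed, the cause was not tested. No block by replicate was possible because each condition has 1 library, and no replicate could be left out. A fit of line plus treatment over the 4 libraries, which leaves 1 residual degree of freedom, was not run. Depth limits *Dusp8*, *Dusp10* and *Dusp14*, whose lowest values are 15 or fewer.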
